A study of Mus musculus with 16 samples.

Results

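The 10 genes described here encode constant regions of mouse antibody chains: the heavy-chain genes *Igha*, *Ighm*, *Ighd*, *Ighg1*, *Ighg2b*, *Ighg2c* and *Ighg3*, and the light-chain genes *Igkc*, *Iglc1* and *Iglc2*. They were chosen by symbol, without use of their values, from the 22396 gene symbols listed for the RNA of EpCAM+ cells, that is, cells carrying the epithelial surface protein EpCAM, sorted from the distal colon of 16 mice. All mice carried the floxed Tnfr2-f/f alleles (Tnfr2 is *Tnfrsf1b*). Controls had nothing further, and the mice labelled knockout also carried Vil1::Cre, a recombinase driven by the villin promoter, which is active in intestinal epithelial cells. Each genotype received either water or, by the labels, 3% dextran sulfate sodium (DSS), an agent that injures the colonic epithelium, for 6 days, with dissection 12 days after the start. The paper differs from the labels in giving a somewhat higher DSS concentration and in describing the water group as uninjured adults at the start of the experiment, and its methods give the injured regions as those dissected after DSS. There were 4 controls and 5 mice labelled knockout with water, and 3 controls and 4 mice labelled knockout after DSS.

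An antibody is built from paired heavy and light chains. B cells first use the constant regions Ighm and Ighd, and class switching moves the rearranged variable segment to a gamma, epsilon or alpha constant region, the last giving IgA. Plasma cells of the gut wall secrete IgA joined by the J chain (*Jchain*), which the epithelial receptor Pigr carries into the lumen. Each light chain is of the kappa or the lambda type, and kappa prevails in mice. Epithelial cells are not the known source of these RNAs, so the values below concern RNA in the sorted samples, and in such bulk samples fewer cells of a type and less RNA per cell cannot be told apart.

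The values are TPM, a level relative to the library and per transcript length, given for one annotated principal transcript of each of the 10 genes. On GRCm38 (GENCODE M21) the 7 heavy-chain genes lie on the minus strand of chromosome 12, from *Igha* (chr12:113254830-113260236) to *Ighm* (chr12:113418558-113422730). *Igkc* is a single constant exon on chromosome 6 (chr6:70726435-70726966, plus strand), and *Iglc1* (chr16:19061618-19062071) and *Iglc2* (chr16:19198396-19200351) lie on the minus strand of chromosome 16. Every heavy-chain transcript listed was the form with the membrane tail, the coding end that anchors the chain in the B cell surface. The form with the secreted tail, which plasma cells use for soluble antibody, is annotated for all 7 genes but was not among the listed transcripts. The ends of both forms of *Igha* and *Ighm*, read from the GENCODE M21 transcripts, are shown because the heavy-chain values are listed under these forms; capitals mark the coding bases that only this form carries, after 20 bases that both forms share.

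Igha, listed form, own coding bases at chr12:113256201-113256397, minus strand: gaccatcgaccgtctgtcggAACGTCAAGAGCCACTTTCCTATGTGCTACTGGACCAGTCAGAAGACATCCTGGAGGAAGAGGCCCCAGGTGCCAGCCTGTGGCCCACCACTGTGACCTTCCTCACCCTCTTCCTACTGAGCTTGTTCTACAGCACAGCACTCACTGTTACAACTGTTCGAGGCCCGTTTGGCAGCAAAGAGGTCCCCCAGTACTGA
Igha, secreted form, not listed, own coding bases at chr12:113258768-113258829, minus strand: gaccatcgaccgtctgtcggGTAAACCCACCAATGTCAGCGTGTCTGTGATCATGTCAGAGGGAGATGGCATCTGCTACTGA
Ighm, listed form, own coding bases within chr12:113418826-113419068, minus strand: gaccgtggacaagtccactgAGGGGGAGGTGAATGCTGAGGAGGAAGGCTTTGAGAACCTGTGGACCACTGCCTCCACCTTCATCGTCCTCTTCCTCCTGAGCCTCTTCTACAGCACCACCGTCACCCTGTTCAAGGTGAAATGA
Ighm, secreted form, not listed, own coding bases at chr12:113420867-113420928, minus strand: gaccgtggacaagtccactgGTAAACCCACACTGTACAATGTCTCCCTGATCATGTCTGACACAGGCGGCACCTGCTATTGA

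The listed *Igha* tail has 197 coding bases of its own and that of *Ighm* 125, against 62 in the secreted form of either gene. Of the 31-base windows of the listed transcripts, 62.5% in *Igha* and 23.6% in *Ighm* occur in no other annotated transcript, the rest being shared with the secreted form of the same gene. *Igkc* has no second annotated transcript, and 100% of its windows are its own, as are 99.8% of those of *Iglc1*. *Iglc2* is the least certain member: 98.8% of its windows are shared with another transcript of its own gene that was not listed, and 24.8% with *Iglc3*, a lambda constant gene outside the 10. Over 317 aligned coding bases *Iglc2* and *Iglc3* are 96.5% identical, and a stretch of 120 coding bases holds 7 of their 11 differences, marked in capitals.

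Iglc2 at chr16:19198733-19198852, minus strand: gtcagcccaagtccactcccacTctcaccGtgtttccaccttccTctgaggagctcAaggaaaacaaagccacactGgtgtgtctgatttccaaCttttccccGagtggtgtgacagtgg
Iglc3 at chr16:19065562-19065681, minus strand: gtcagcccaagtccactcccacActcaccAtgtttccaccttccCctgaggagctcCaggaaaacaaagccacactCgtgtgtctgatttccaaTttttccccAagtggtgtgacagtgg

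The 2 treatments were deposited as separately scaled tables, so levels are compared by test only within a treatment, while the share of a gene within its class in a mouse does not depend on that scaling. All DSS-treated mice were female, from 2 cages, and the water-treated mice were 4 males of one cage (cage a) and 5 females of another (cage b). Treatment and cage therefore cannot be told apart, nor can cage and sex among the water-treated mice. *Tnfrsf1b* was not lower in the labelled knockouts after DSS (13.5 to 27.0 TPM against 13.3 to 22.2 TPM in the controls) and overlapped with water (9.23 to 14.8 against 11.1 to 15.5 TPM). These values are for whole transcripts and were not read by exon, so they cannot show whether the floxed part was lost. The paper describes a single floxed exon. It reports reduced receptor in EpCAM+ cells of the knockout by flow cytometry, and loss of its expression in sorted cells by qPCR. *Epcam* was at 566 to 712 TPM with water and 894 to 1017 TPM after DSS, and none of the 10 epithelial markers looked for was at 0 in either treatment. Of the 10, 3 (*Epcam*, *Cdh1* and *Cdx2*) were higher in every DSS-treated mouse than in any water-treated mouse. In the other direction there were 0, and the rest overlapped. The 10 markers added up to 6356 to 8947 TPM with water and 6119 to 9954 TPM after DSS.

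The constant genes were abundant in the sorted cells of every water-treated mouse and sparse after DSS. Together the 10 genes made up 0.556% to 16.4% of all listed TPM with water and 0.0103% to 0.722% after DSS. With every listed immunoglobulin gene counted, 262 in all, the shares were 1.62% to 47.4% and 0.0260% to 2.26%. Across the water-treated mice the order of the medians was *Igkc*, *Iglc1*, *Igha*, *Iglc2*, *Ighm*, *Ighd*, *Ighg2b*, *Ighg1*, *Ighg3* and *Ighg2c*. *Igkc* was above *Iglc1*, *Iglc1* above *Igha*, and *Ighm* above *Ighd* in 9 of 9 mice. The other neighbours in that order changed places between mice: *Igha* exceeded *Iglc2* in 6 of 9 and *Iglc2* exceeded *Ighm* in 5 of 9.

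**Figure D1:**
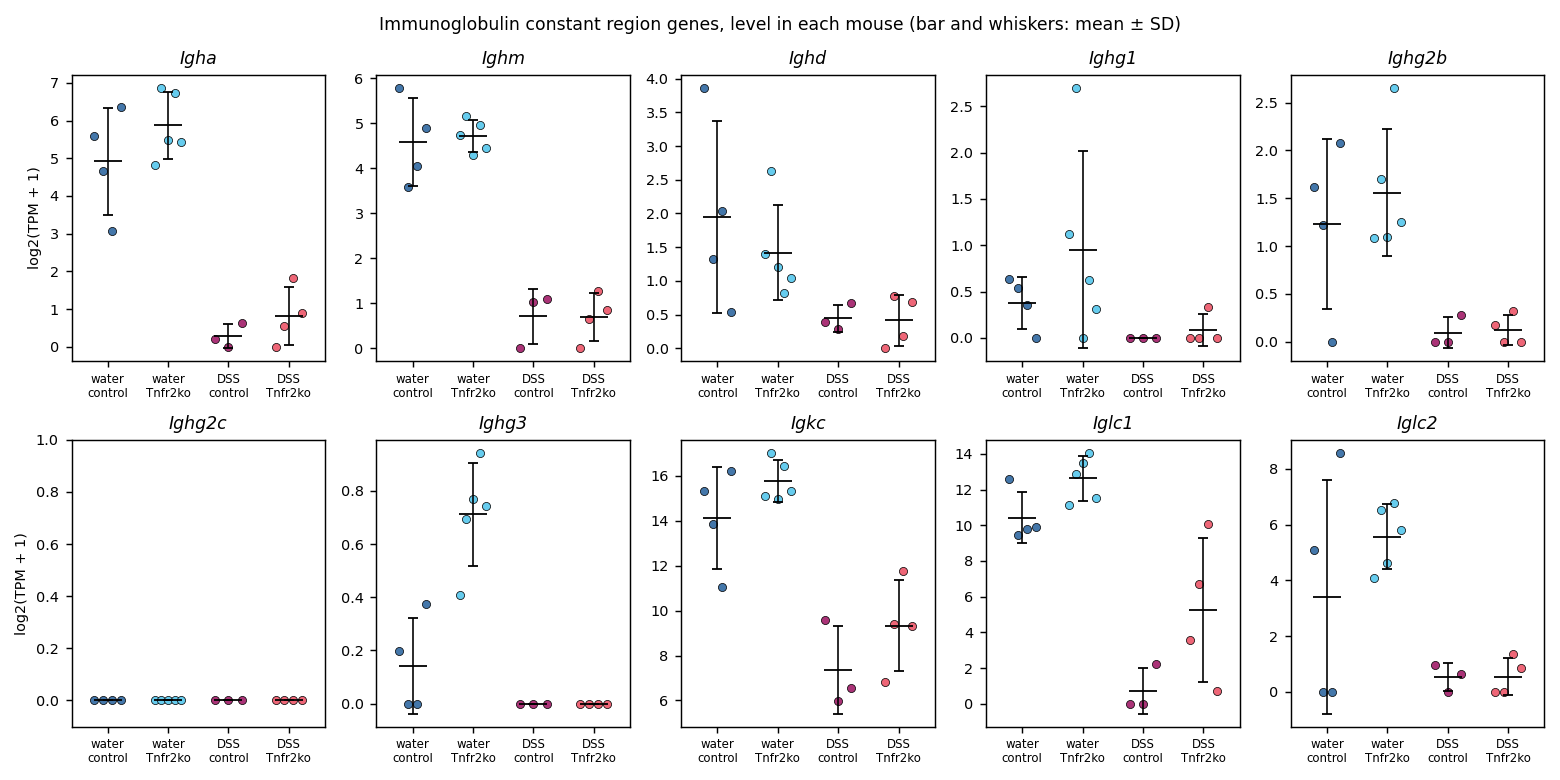
Level of each of the 10 constant genes in each mouse, as log2(TPM + 1), by treatment and genotype; points are mice, and the bar with whiskers is the mean ± SD. *Igha* and *Ighm* were above 7 TPM in all water-treated mice and at most 2.55 TPM after DSS, and *Ighg2c* was listed at 0 in all 16 mice.

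*Igkc*, the constant region of the kappa light chain, was the most abundant member. In the water-treated controls it stood at 41107, 15046, 2093 and 76550 TPM, and in the water-treated labelled knockouts at 35298, 133382, 31727, 89990 and 40532 TPM. After DSS it stood at 766, 61.5 and 92.1 TPM in the controls and at 114, 669, 3510 and 630 TPM in the labelled knockouts. The third water-treated control was lowest of its treatment and fell below the third DSS-treated labelled knockout, so the treatments overlapped in those 2 mice alone. The authors' mean natural log of the estimated counts of *Igkc* was 10.4 over the water-treated mice and 6.57 over the DSS-treated mice.

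*Iglc1*, a lambda constant region, ranged from 703 to 6057 TPM in the water-treated controls and from 2264 to 16982 TPM in the labelled knockouts given water. After DSS it was listed at 0 in 2 controls and at 3.69 TPM in the other, and stood at 11.1, 103, 1074 and 0.645 TPM in the labelled knockouts. As with *Igkc*, the third labelled knockout was the highest after DSS, and it was above 3 of the water-treated controls. *Iglc2* was listed at 0 in 2 water-treated controls, at 33.2 and 381 TPM in the other 2 and at 15.98 to 110 TPM in the labelled knockouts given water, with at most 1.53 TPM after DSS. In both controls with *Iglc2* at 0, the near-identical *Iglc3* was listed at 544 and 277 TPM. The sum of *Iglc2* and *Iglc3* was 1193 ± 911 TPM in the water-treated controls (SD, n = 4) and 686 ± 378 TPM in the labelled knockouts (SD, n = 5). It depends little on how shared reads were divided between these 2 listed transcripts. Reads given to the unlisted transcript of *Iglc2*, if that was also quantified, would be missing from the sum.

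*Igha*, the constant region of IgA, was the leading heavy-chain gene in 7 of 9 water-treated mice. It was listed at 47.1, 24.5, 7.35 and 81.6 TPM in the controls and at 27.5, 116, 43.5, 106 and 42.5 TPM in the labelled knockouts. After DSS the 3 controls had 0.160, 0 and 0.540 TPM, and the 4 labelled knockouts 0, 0.456, 2.55 and 0.846 TPM. Every water-treated mouse thus exceeded every DSS-treated mouse. The authors' mean log estimated count over the DSS-treated mice was 1.39, which corresponds to about 4.01 reads, so that the DSS values of *Igha* rest on few reads.

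*Ighm*, used by unswitched B cells and for IgM, was listed at 54.5, 11.02, 15.6 and 28.9 TPM in the water-treated controls and at 25.8, 34.9, 18.6, 30.0 and 20.9 TPM in the labelled knockouts given water. It was above *Igha* in the first and the third of these controls. It reached at most 1.42 TPM after DSS, without overlap between treatments. Of the genes averaging 1 TPM or more in the whole set of mice, 4.16% had every water-treated mouse above every DSS-treated mouse on the deposited scale, and 6.96% after one rescaling of all 16 mice. *Igha* and *Ighm* were the 2 members that did so, of the 7 that reached this mean, on either scale. The mean of log2(TPM + 1) was lower after DSS by a difference of -4.87 for *Igha*, -3.96 for *Ighm*, -6.55 for *Igkc* and -8.31 for *Iglc1* (SD within treatments 0.99, 0.60, 1.91 and 2.80), and of -5.08, -4.18, -6.91 and -8.60 after the rescaling. These are descriptions, since no level was tested across the tables.

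The other heavy-chain members were low. *Ighd*, which marks naive B cells, was 13.6 TPM in the first water-treated control and 0.451 to 5.19 TPM in the other 8 water-treated mice, against 0 to 0.715 TPM after DSS. The gamma genes, which encode IgG, added up to 1.06% to 5.09% of the heavy-chain TPM with water. *Ighg2b* was 0 to 5.31 TPM and *Ighg1* was 0 to 5.51 TPM with water, and both stayed at or below 0.265 TPM after DSS. *Ighg3* was listed at 0 in all 7 DSS-treated mice, and at 0 to 0.922 TPM with water. *Ighg2c* was listed at 0 in all 16 mice, as was *Ighe*, the constant region of IgE, which is not among the 10.

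Shares give the proportions among the listed transcripts of a class, which for the heavy chains are those of the membrane-tail forms, apart from their amount. Among the 7 heavy-chain genes, *Igha* took 39.9%, 63.2%, 28.0% and 71.3% in the water-treated controls and 47.8%, 70.6%, 66.6%, 73.8% and 63.7% in the labelled knockouts given water. After DSS its share was 34.2%, 0% and 21.7% in the controls and 0%, 26.1%, 55.3% and 37.4% in the labelled knockouts. The heavy-chain genes of a DSS-treated mouse added up to only 0.130 to 4.61 TPM, against 26.3 to 165 TPM with water. In the first DSS-treated labelled knockout, 0.130 TPM of *Ighg2b* was the whole heavy-chain sum and gave a share of 100%.

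**Figure D2:**
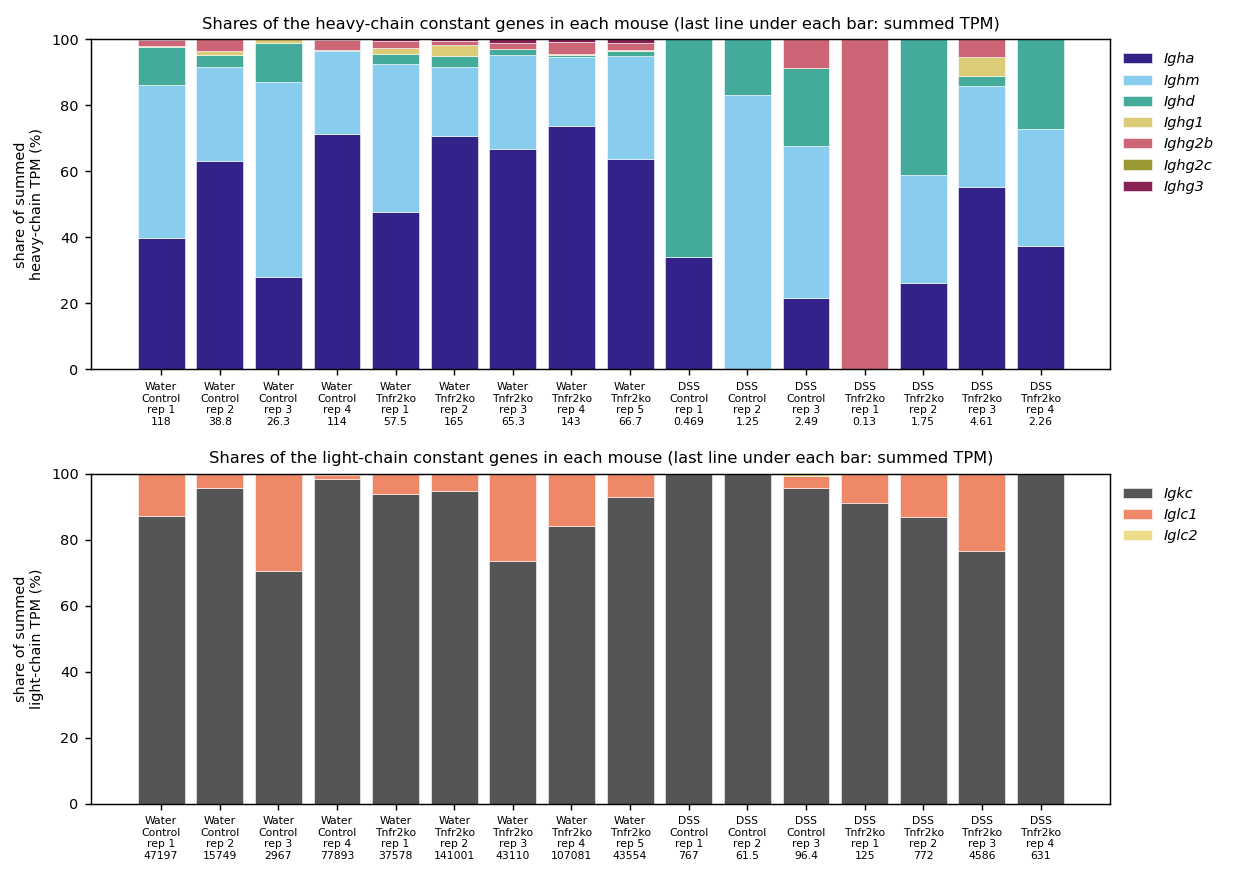
Share of each heavy-chain gene in the summed heavy-chain TPM (top) and of each light-chain gene in the summed light-chain TPM (bottom), in percent, one bar per mouse, with the sum in TPM as the last line under each bar. *Igha* and *Ighm* fill most of the heavy-chain bars with water, the DSS bars differ widely and rest on sums of at most 4.61 TPM, and *Igkc* takes at least 70.6% of the light-chain sum in every mouse.

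Between treatments, the *Igha* share averaged 25.0% ± 20.1 after DSS (SD, n = 7) and 58.3% ± 16.02 with water (SD, n = 9), a difference of -33.4 percentage points (exact permutation over 11440 splits of the mice, two-sided p = 0.00323, adjusted p = 0.0258 over the 10 shares). Mice were split singly although no cage held both treatments, so the p-values between treatments measure the spread between mice. They cannot tell treatment from cage. The *Ighd* share was higher after DSS, at 25.3% ± 22.8 against 4.19% ± 4.39 (exact permutation p = 0.00516, adjusted p = 0.0258). The *Ighg3* share was 0.451% ± 0.405 with water and 0% in all DSS-treated mice (exact permutation p = 0.0119, adjusted p = 0.0396). A share of 0.451% of the largest heavy-chain sum after DSS would be 0.0208 TPM, below the lowest heavy-chain value above 0 in those mice, 0.130 TPM, so this test shows no change of the *Ighg3* share, and it did not pass without any one of the DSS-treated mice (adjusted p = 0.0664 to 0.0673 by exact permutation). The direction turned when the share was taken as a log2 ratio with 0.1 TPM added to both parts (3.83 higher after DSS), since the added amount outweighs heavy-chain sums this low. For *Ighm* the shares were 32.6% ± 28.5 and 34.0% ± 13.1, and for *Igkc* 92.8% ± 8.78 and 87.9% ± 9.97 of the light chains, neither of which passed the test (adjusted p = 1 and 0.527 by exact permutation). The *Igha* and *Ighd* differences rest on the thin heavy-chain sums of the DSS-treated mice. Without the 2 mice whose heavy-chain sum was under 1 TPM, an alternative chosen after the values were seen, the *Igha* difference was -30.2 points (adjusted p = 0.0549 by exact permutation), and the *Ighd* difference was 18.1 points (adjusted p = 0.03 by exact permutation). Against the 5 water-treated females alone, *Igha* differed by -42.8 points (adjusted p = 0.0379 by exact permutation), and *Ighd* by 23.6 points (adjusted p = 0.143). Leaving out the third DSS-treated control or the second DSS-treated labelled knockout also took the *Igha* adjusted p to 0.0539 and 0.0559 by exact permutation. For *Ighd* the adjusted p was 0.0539 to 0.0589 by exact permutation without any one of 4 DSS-treated mice (the first or the third control, the second or the fourth labelled knockout). Neither share passed within either genotype alone.

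Genotype was compared first within the water-treated mice, where all 9 mice had ample light-chain signal. Of the 10 members, 7 reached a mean of 1 TPM and were tested, and none passed limma's test at an adjusted p under 0.05. Of the 11046 genes tested, 0.00905% passed. *Igkc* averaged 33699 ± 32853 TPM for the 4 controls and 66186 ± 44389 TPM for the 5 labelled knockouts (SD), a log2 fold change of 1.65 ± 0.98 (SE of TPM + 1, limma adjusted p = 0.865). *Iglc1* showed the smallest unadjusted p of the 7, 0.0207 by limma, with 2149 ± 2608 TPM (SD, n = 4) against 8220 ± 6127 TPM (SD, n = 5), a log2 fold change of 2.19 ± 0.79 and an adjusted p of 0.865. The 2 groups overlapped for *Iglc1*, since the first control, at 6057 TPM, was above 2 of the labelled knockouts. *Igha* had a log2 fold change of 0.95 ± 0.67 and *Ighm* one of 0.14 ± 0.41 (limma adjusted p = 0.865 and 0.96).

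For *Iglc2* the log2 fold change was 2.15 ± 1.69, although its mean TPM was lower in the labelled knockouts (59.3 against 103 TPM). On the log scale the 2 controls listed at 0 weigh most, and on the linear scale the single control at 381 TPM does. *Ighd* and *Ighg2b* had log2 fold changes of -0.52 ± 0.64 and 0.33 ± 0.47. No tested member separated the genotypes completely, which 1.55% of the tested genes did.

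**Figure D3:**
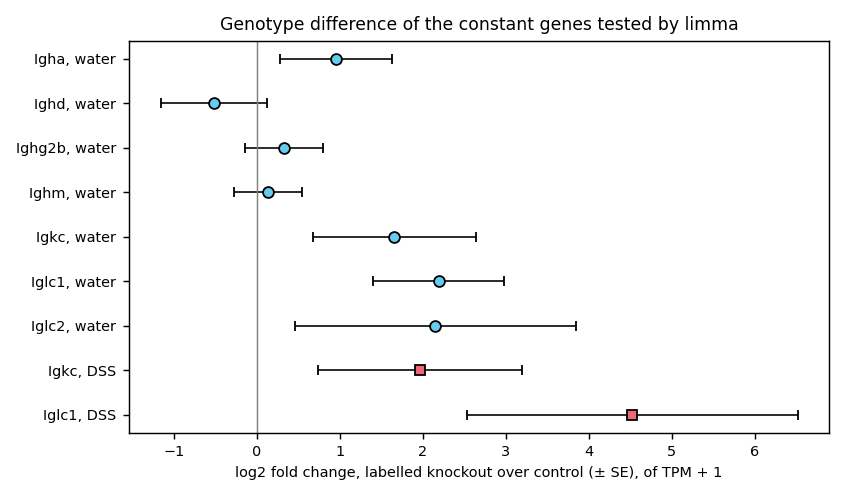
Log2 fold change of TPM + 1, labelled knockout over control, with its standard error from limma, for the 7 constant genes tested with water (circles) and the 2 tested after DSS (squares). None passed at an adjusted p under 0.05, and the widest error is that of *Iglc1* after DSS, 4.53 ± 1.99.

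*Ighg3*, the constant region of IgG3, was too low to be tested at that mean. Its level was 0.146, 0, 0 and 0.296 TPM in the water-treated controls and 0.327, 0.620, 0.706, 0.922 and 0.672 TPM in the labelled knockouts given water. All 5 labelled knockouts were thus above all 4 controls, as were 0.479% of the 16921 genes above 0 in at least 1 water-treated mouse. The highest control and the lowest labelled knockout differed by little, 0.296 against 0.327 TPM. Fitted without the filter on low values, *Ighg3* had a log2 fold change of 0.57 ± 0.12, with an unadjusted limma p of 0.00142 and an adjusted p of 0.844 over those genes. Its share of the heavy-chain sum was 0.0956% ± 0.123 (SD, n = 4) among controls and 0.735% ± 0.299 (SD, n = 5) in the labelled knockouts, with an exact permutation p of 0.0159 and an adjusted p of 0.159 over the 10 shares. The difference was 0.411 points in cage a and 0.781 points in cage b.

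No share passed the genotype test with water. *Igha* took 50.6% ± 20.1 of the heavy-chain sum for the 4 controls and 64.5% ± 10.1 for the 5 labelled knockouts (SD; exact permutation p = 0.206, adjusted p = 0.615). Within cage a the difference was 25.2 points (2 against 2 mice), and within cage b it was 0.813 points (3 labelled knockouts against 2 controls). *Igkc* took 87.9% ± 12.5 and 87.8% ± 9.05 of the light-chain sum (exact permutation p = 0.992, adjusted p = 1), and the cages went opposite ways, with labelled knockouts 15.4 points higher in cage a and a difference of -13.3 points in cage b. These cages hold too few mice for a test.

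Between the cages of the water-treated mice, which also differ in sex, none of the 10 shares passed the adjusted threshold. In cage b, of females, *Igha* took 67.7% ± 4.69 (SD, n = 5), against 46.6% ± 18.0 in cage a, of males (SD, n = 4; exact permutation p = 0.0397, adjusted p = 0.143). *Ighd* took 1.68% ± 1.40 and 7.33% ± 5.02 (exact permutation p = 0.0238, adjusted p = 0.143), and *Ighm* 26.9% ± 3.96 and 42.9% ± 15.8 (exact permutation p = 0.0714, adjusted p = 0.143). With cage as a covariate in limma, the genotype log2 fold change with water was 0.89 for *Igha*, 0.19 for *Ighm*, -0.38 for *Ighd*, 1.60 for *Igkc* and 2.20 for *Iglc1*, and no member passed (lowest adjusted p = 0.787).

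After DSS, 2 members reached a mean of 1 TPM and were tested, and neither passed limma's test, which 0.00918% of the 10899 genes did. *Igkc* averaged 307 ± 398 TPM for the 3 controls and 1231 ± 1541 TPM for the 4 labelled knockouts (SD), a log2 fold change of 1.96 ± 1.23 (limma adjusted p = 0.9997). *Iglc1* had a log2 fold change of 4.53 ± 1.99, an unadjusted limma p of 0.0540 and an adjusted p of 0.9997. Both genes overlapped between genotypes, whereas 3.68% of the tested genes did not. The third labelled knockout, with 3510 TPM of *Igkc* and 1074 TPM of *Iglc1*, carried most of the mean of its group. Without it the log2 fold change was 1.15 for *Igkc* and 2.93 for *Iglc1*.

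Of the shares after DSS, none passed the genotype test, for which 35 splits of the mice allow an exact permutation p of 0.0286 at the least. *Igkc* took 98.5% ± 2.51 of the light-chain sum for the 3 controls and 88.5% ± 9.66 for the 4 labelled knockouts (SD; exact permutation p = 0.114, adjusted p = 0.571). *Igha* took 18.6% ± 17.3 and 29.7% ± 23.2 of the heavy-chain sum (exact permutation p = 0.457, adjusted p = 0.762). The genotype difference of a share was not shown to depend on treatment for any of the 10 (exact permutation over 4410 splits, lowest adjusted p = 0.159, for *Ighg3*, and 0.983 for *Igha* and *Igkc*).

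Across the 9 water-treated mice *Igha* rose and fell with *Jchain*, the joining chain of secreted IgA and IgM, and with *Igkc* and *Iglc2*. Taking log2(TPM + 1), *Igha* and *Jchain* had a Pearson r of 0.98 (exact permutation p = 2.76e-06, adjusted p = 3.86e-05 over 14 relations) and a Spearman rho of 1 (exact permutation p = 5.51e-06). *Igha* and *Igkc* had an r of 0.97 (exact permutation p = 4.68e-05, adjusted p = 0.000328) and a rho of 0.95 (exact permutation p = 0.000353), and *Igha* and *Iglc2* an r of 0.87 (exact permutation p = 0.00116, adjusted p = 0.00543) and a rho of 0.88 (exact permutation p = 0.0034). The adjusted p of these 3 rho were 7.72e-05, 0.00247 and 0.0158 by exact permutation. Without the 2 mice farthest from the median of *Igha*, the 3 values of r were 0.96, 0.92 and 0.84. Within cage a they were 0.99, 0.97 and 0.98 (n = 4), and within cage b 0.97, 0.98 and 0.87 (n = 5).

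*Ighm* followed the others less closely in Pearson's measure. Its r was 0.62 with *Igkc* (exact permutation p = 0.0788, adjusted p = 0.122) and 0.60 with *Igha* (exact permutation p = 0.0868, adjusted p = 0.122), while the rho was 0.87 (exact permutation p = 0.00451, adjusted p = 0.0158) and 0.82 (exact permutation p = 0.0108, adjusted p = 0.0302). The first water-treated control, with the highest *Ighm*, also had the highest *Ighd* and the highest *Ms4a1*, which encodes the B cell surface protein CD20 (6.02 TPM against 0 to 2.97 TPM in the other 8). *Ighm* and *Ms4a1* had an r of 0.71 (exact permutation p = 0.0335, adjusted p = 0.0626) and a rho of 0.57 (exact permutation p = 0.121, adjusted p = 0.229), and r fell to 0.36 without the 2 mice farthest from the median of *Ighm*. *Igha* and *Epcam* had an r of -0.69 (exact permutation p = 0.0358, adjusted p = 0.0626) and a rho of -0.53 (exact permutation p = 0.148, adjusted p = 0.229). This r was -0.53 without the 2 mice farthest from the median, -0.96 in cage a and -0.43 in cage b. With the members, but not the other immunoglobulin genes, taken out of the listed TPM total, it was -0.89 (adjusted p = 0.000829 by exact permutation). That total still holds the other immunoglobulin genes, so this value cannot show a relation free of the shared total.

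After DSS none of the 7 relations passed over the 7 mice. *Igha* had an r of 0.79 with *Jchain* and of 0.78 with *Igkc* (adjusted p = 0.0626 for both by exact permutation), with rho at 0.58 and 0.54 (exact permutation p = 0.187 and 0.218). Without the 2 mice farthest from the median of *Igha* these r fell to 0.23 and 0.28, so they rested on those mice. Among the 5 mice of one cage they were 0.85 and 0.83. The ratio of *Igkc* to *Jchain* was 4.51 to 10.5 with water and 7.97 to 12.9 after DSS.

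**Figure D4:**
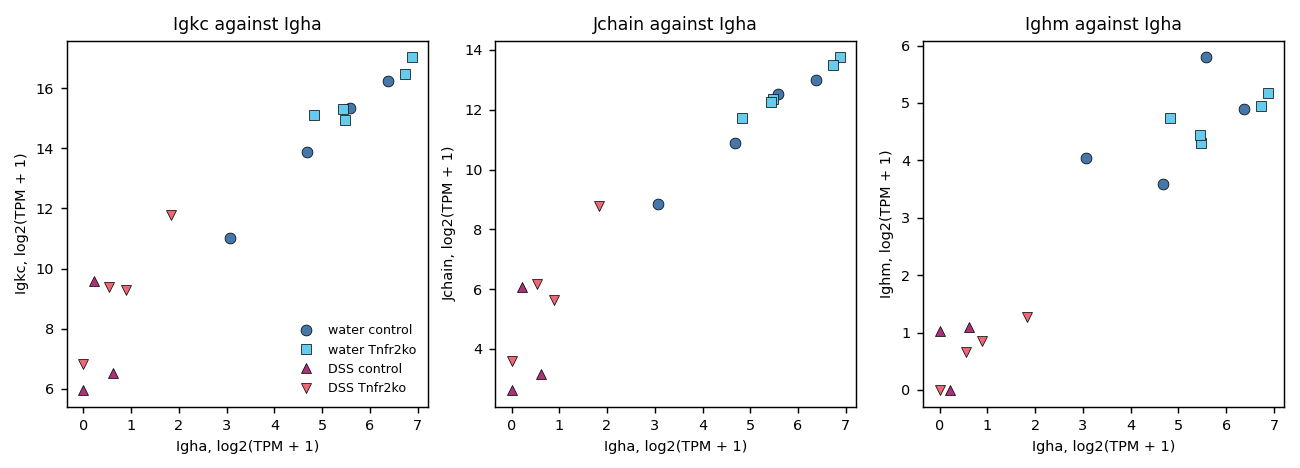
*Igkc*, *Jchain* and *Ighm* against *Igha* in each mouse, all as log2(TPM + 1), with the symbol and colour giving treatment and genotype. The water-treated mice lie along a line for *Igkc* (r = 0.97) and *Jchain* (r = 0.98) and more loosely for *Ighm* (r = 0.60), and the 7 DSS-treated mice sit at the lower left in each panel.

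Light-chain levels were far above heavy-chain levels in every mouse. The summed light-chain TPM was 113 to 856 times the summed heavy-chain TPM with water, and *Igkc* was 285 to 1285 times *Igha*. The heavy-chain values are those listed for the membrane-tail transcripts. Whether the secreted forms were also in the index used for quantification is not given in the sources used here, and without them reads of the shared exons would count towards the listed form, so what a heavy-chain value covers is uncertain. The part of the unlisted secreted forms in this ratio was not tested.

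Apart from the immunoglobulin genes, the genes whose level across the 9 water-treated mice was most like that of *Igha* were *Tent5c* (r = 0.99), *Gpr55* (0.99), *Tmem154* (0.99), *Jchain* (0.98) and *Edem2* (0.98). For *Igkc* they were *Lax1* (0.99), *Serpina3g* (0.99), *Mzb1* (0.99), *Lman1* (0.99) and *Jchain* (0.99), and for *Ighm* *Spcs2* (0.94), *Slc25a35* (0.89), *H2-Eb2* (0.89), *Gpr18* (0.88) and *Nde1* (0.87). These are the highest Pearson r of log2(TPM + 1) among the 10855 genes that averaged 1 TPM or more there, given as a description, and libraries and the TPM total are shared by all of them.

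The other genes of antibody-forming cells differed among themselves between treatments. Of the 14 genes of the plasma cell list, 3 (*Jchain*, *Tnfrsf17* and *Slamf7*) were higher in every water-treated mouse than in any DSS-treated mouse in the separately scaled tables. The same held for 4.16% of the genes averaging 1 TPM or more in the whole set of mice. In the other direction, 1 gene, *Cd38*, was higher in every DSS-treated mouse, at 57.1 to 97.0 against 28.8 to 40.9 TPM. The share of all genes in that direction is not given here. *Fkbp11* overlapped, at 10.2 to 20.9 TPM after DSS and 5.10 to 26.0 TPM with water. Between genotypes, 13 of the 14 were tested with water and 8 after DSS, and none passed limma's test in either direction. Their median log2 fold change was 0.71 with water, where that of all tested genes was 0.0015, and 0.16 after DSS, where it was 0.015. The summed level of the 7 plasma cell markers was 571 to 14349 TPM with water and 90.1 to 547 TPM after DSS, with none of the 7 at 0 in all mice of a treatment and *Jchain* the largest in each water-treated mouse. *Mzb1*, a chaperone of antibody assembly, was 8.84 to 353 TPM with water and 0.534 to 14.4 TPM after DSS. *Sdc1* (CD138), which marks plasma cells but is also an epithelial gene, was 90.9 to 137 and 72.7 to 110 TPM.

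Of 11 B cell genes, 8 were tested with water and 1 after DSS, and none passed, with medians of -0.26 and 0.31. *Cd79a*, the signalling subunit of the B cell receptor, was 7.13 to 91.1 TPM with water and 0.591 to 3.05 TPM after DSS. In the germinal centre and switching list 2 of 6 genes were tested in either treatment and none passed (medians -0.021 with water and 0.36 after DSS).

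On the epithelial side of IgA transport, *Pigr*, the receptor that carries IgA across the epithelium, was 793 to 1167 TPM with water and 1123 to 1804 TPM after DSS. Of the 10 genes in the IgA transport and survival list, 8 were tested with water and 6 after DSS, and none passed, with medians of 0.066 and 0.037. *Ccl28*, a chemokine that draws IgA plasma cells to mucosa, was 27.3 to 36.2 and 38.5 to 48.0 TPM. *Ccr10*, its receptor, was 1.28 to 21.2 TPM with water and 0.16 to 1.00 TPM after DSS. Of the 10 genes, 4 (*Ccr10*, *Tgfb1*, *Itga4* and *Itgb7*) were higher in every water-treated mouse than in any DSS-treated mouse. That held for 4.16% of the genes averaging 1 TPM or more in the whole set of mice. Only 1, *Ccl28*, was higher in every DSS-treated mouse, a direction for which the share of all genes is not given here. *Pigr* and the rest overlapped.

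Taken as sums, markers of other leukocytes were also lower after DSS, though single markers overlapped. The 7 macrophage and myeloid markers added up to 549 to 1336 TPM with water and 64.8 to 126 TPM after DSS, with none at 0 throughout. Of the 7, 6 were higher in every water-treated mouse than in any DSS-treated mouse, against 4.16% of genes averaging 1 TPM or more. *Cd14* overlapped, at 69.2 to 239 TPM with water and 57.3 to 110 TPM after DSS, and made up most of the sum after DSS. The 8 T cell and intraepithelial lymphocyte markers added up to 6.58 to 22.6 and 0.437 to 3.03 TPM. Only 2 of the 8, *Cd4* and *Trac*, were higher in every water-treated mouse than in any DSS-treated mouse. *Cd3d* overlapped, at 0 to 1.44 TPM with water and 0.00706 to 1.58 TPM after DSS. *Cd8a* was at 0 in every DSS-treated mouse, but also in most water-treated mice, where it reached at most 0.281 TPM. *Ptprc* (CD45), carried by leukocytes at large, was 7.65 to 29.2 TPM with water and 0 to 4.88 TPM after DSS. The 5 stromal markers overlapped, at 192 to 688 and 93.8 to 441 TPM, and the 6 B cell markers added up to 9.24 to 122 and 1.02 to 4.05 TPM. The part of differences in sorting or dissection between the treatments in the levels of the members was not tested.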

How the data were processed

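RNA of sorted EpCAM+ cells of 16 mice was analysed. Per the labels, stranded polyA libraries were sequenced and processed with kallisto and sleuth on mm10 (versions not given in the sources used here). The authors deposited 2 tables of TPM, one per treatment, each scaled on its own and limited to APPRIS principal transcripts. Lines that repeated another (385 in each table) were dropped. Also in the authors' tables are a natural log of estimated counts, averaged over the mice of a table and quoted where given, and p-values, q-values and log2 ratios of their genotype test, which were deposited by the authors and not used. The depth of a library is not given by TPM, and the number of mice limits the precision. Sequences and positions are from GENCODE M21 (GRCm38), where all 28988 listed transcripts occur, 96.0% of them in the listed version.

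TPM was summed by gene symbol. The 10 members and the gene lists were chosen with earlier results of these data known. For each treatment, labelled knockouts were set against controls by limma 3.58.1 (R 4.3.3; trended variance) on log2(TPM + 1). Genes averaging 1 TPM or more in that treatment were tested, and a gene was called where its p, adjusted by Benjamini and Hochberg's method, was under 0.05. The limma step was tested on simulated data with known changes. A share is the TPM of a member as a percent of the 7 heavy-chain or the 3 light-chain members of the same mouse. Differences of mean shares were tested by exact permutation over all splits of the mice (two-sided), with adjustment over the 10 shares, and relations between genes by exact permutation of Pearson's r and Spearman's rho of log2(TPM + 1), with adjustment over 14. Levels were not tested between tables. Labels do not say that mice of a group came from separate litters, so p-values measure the spread between these mice. Genes named besides the members are those of the fixed lists and, for *Igha*, *Ighm* and *Igkc*, the 5 genes outside the immunoglobulins with the highest r over the water-treated mice. Alternatives were a pseudocount of 0.1 TPM, no filter or a mean of at least 5 TPM, median-of-ratios and quantile rescaling, cage as a covariate, the replicate number as a block, log2 ratios in place of shares, other denominators, subsets of the mice, and leaving out each mouse. Python 3.11.15, numpy 2.4.6, pandas 2.3.3, scipy 1.17.1, Biopython 1.88 and matplotlib 3.10.9 were used.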

Additional observations from a re-analysis of the deposited data

Results flagged for a closer look

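In groups of 4 or 5 mice, single mice stood apart from their group in 12 of the 52 groups of values examined (a member, or its share, in the mice of one group), as judged by the gap of the highest or lowest mouse to its neighbour against the whole range of the group. Chance alone flags about 1 group in 20, and the values of a mouse are not independent of each other.

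After DSS, the third labelled knockout was far above the other 3 of its group for *Igkc* (3510 TPM, the next being 669 TPM), for *Iglc1* (1074 TPM, the next 103 TPM) and for *Ighg1* (0.265 TPM, or 5.74% of the heavy-chain sum, with the other 3 at 0). The first labelled knockout after DSS had 0% of *Ighm*, the next being 30.7%, and 100% of *Ighg2b*, the next being 5.38%, from a heavy-chain sum of 0.130 TPM. In the water-treated labelled knockouts the second mouse was apart for *Ighd* (5.19 TPM, the next 1.63 TPM) and *Ighg1* (5.51 TPM, the next 1.17 TPM), and the fourth for *Ighg2b* (5.31 TPM, the next 2.25 TPM). Among the water-treated controls, the first mouse was apart for *Iglc1* (6057 TPM, the next 962 TPM), and the fourth for *Iglc2* (381 TPM, the next 33.2 TPM, and 0.489% of the light-chain sum, the next 0.0703%). No genotype difference of a share was shown to differ between the treatments at an adjusted p under 0.05.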

How the results depend on the processing

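No member passed the genotype test on levels under any of the alternatives run. The count of all genes called after DSS was 1, and it was 0 with a pseudocount of 0.1, without the filter on low values or with the replicate number as a block, and 0 to 3 with 1 mouse left out. With water it was 1, and 0 with a pseudocount of 0.1, a mean of at least 5 TPM or the replicate block, 2 after quantile normalization, 4 without the filter, and 1 to 2 with 1 mouse left out. Same-numbered mice did not deviate together (correlations over genes of -0.197 to -0.0253 after DSS and -0.0769 to 0.0932 with water), so the numbers were not taken to pair mice. With the replicate block the *Igha* and *Igkc* shares differed by 8.51 and -13.7 points after DSS and by 14.1 and -1.33 points with water, and no share passed. With 1 water-treated mouse left out, the log2 fold change ranged from -0.99 to 0.12 for *Ighd* (above 0 without the first control), from -0.19 to 0.54 for *Ighm* (below 0 without the second or the third control) and from -0.079 to 0.61 for *Ighg2b* (below 0 without the third control). The *Igkc* share by genotype with water ranged from -5.79 to 3.54 points, changing sign without any one of 4 mice, and was 2.68 points with all listed constant genes in the denominator. The genotype difference of the summed shares after DSS was -18.9 points for *Igkc*.

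Between treatments, the number of shares passing was 3, and 6 as log2 ratios, 1 in mice with at least 1 TPM of heavy chains, 1 in females, 0 within either genotype alone, and 0 to 3 with 1 mouse left out. It was 0 without the third DSS-treated control or the second DSS-treated labelled knockout, and 1 without the first DSS-treated control or the fourth DSS-treated labelled knockout. The *Igha* difference was -30.2 points in mice with at least 1 TPM of heavy chains, -32.0 in controls (adjusted p = 0.4), -34.8 in labelled knockouts (adjusted p = 0.119, both by exact permutation) and -38.4 to -29.2 with 1 mouse left out, all in one direction. The *Ighg3* difference turned to 3.83 as a log2 ratio. From summed TPM the *Igkc* difference was -7.22 points, against 4.95 as the mean of mice. The dependence of the *Igha* genotype difference on treatment was -2.85 points and 0.45 as a log2 ratio, neither passing. With the members, but not the other immunoglobulin genes, taken out of the TPM total, *Ighm* and *Ms4a1* after DSS had an r of -0.016, against 0.073 as deposited. *Igha* and *Epcam* with water then had an r of -0.89 (adjusted p = 0.000829 by exact permutation), which still depends on the shared total. The causes of these changes were not tested, other than by the construction of the log2 ratio. Depth is unknown, and most heavy-chain values after DSS are under 1 TPM.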
